A study of Mus musculus with 4 samples.

Results

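The B-lineage factors and pre-B receptor genes described here were *Pax5*, *Ebf1*, *Cd79a*, *Cd79b*, *Vpreb1*, *Vpreb3*, *Igll1*, *Blnk* and *Cd72*. They were chosen by name: every array probe whose gene name was 1 of these 9 was taken, which gave 12 probes, among 28095 gene names and 41174 probes on the array. Of the 12 probes, 7 probes of 5 genes (*Cd79b*, *Vpreb1*, *Vpreb3*, *Blnk* and *Cd72*) were bright enough to be tested, meaning that in 1 genotype or both, neither array was below the scanner software's limit for a signal well above background.

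LSK cells are marrow cells without lineage markers that carry Sca-1 and c-Kit, a mixture of hematopoietic stem cells and early progenitors. Their RNA was hybridized to 4 arrays of 1 color. The Meis1-KO LSK samples came from Mx1-Cre Meis1 fl/fl mice given poly(I:C), in which exon 8 of *Meis1* is deleted, and the Meis1-WT LSK samples from Meis1 fl/fl mice without Cre. Each genotype had 2 pools of 6 mice of the C57BL/6 background, aged 4 to 8 weeks at poly(I:C), with cells collected 1 week later. Poly(I:C) was given at 1.5 µg per g of body weight in 4 injections at 1-day intervals, and whether the control mice received it or a sham treatment is described in different ways in the sources. *Mx1-Cre* responds to interferon and is not limited to hematopoietic cells. The sort removed cells that stained for CD11b, Gr-1, TER119, B220 or CD3, and each labeling started from 10 ng of RNA. B220 is present on most B-lineage cells of the marrow, so the samples were selected against the cells in which these genes are best known. All values are log2 processed signals minus the 75th percentile of that array, so 0 is the 75th percentile.

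B cells arise from lymphoid progenitors that first express EBF1 and then PAX5, transcription factors that switch on the B-cell program and hold it. Once an immunoglobulin heavy chain is made, it is displayed with a surrogate light chain, built from VpreB (*Vpreb1*) and lambda-5 (*Igll1*), and with the signal-transducing pair CD79A and CD79B. This pre-B receptor signals through the adaptor BLNK, while CD72 is a co-receptor that carries an inhibitory motif. Parts of this gene set, the surrogate light chain among them, are known to be transcribed in early lymphoid progenitors before the heavy chain is complete.

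The arrays read each gene through a probe of 60 bases, and probes of the same gene did not always give the same signal, so the sequences behind those cases are given first. Positions are those of the array annotation on mm9, all sequences are written 5′ to 3′, and whether a probe lies in a coding exon or an untranslated region was not analysed here. The probes of *Vpreb3* lie on the plus strand of chromosome 10 at chr10:75412043-75412102 and chr10:75412265-75412324, do not overlap and gave different signals. The first is shown whole and the first 30 bases of the other are shown.

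Vpreb3 A_51_P375789: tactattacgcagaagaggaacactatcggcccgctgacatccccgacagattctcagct

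Vpreb3 A_52_P433847: ttttctcttaagtcttgctttctttccttc

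The surrogate light chain genes *Vpreb1* and *Igll1* are neighbours on the minus strand of chromosome 16. The only probe named *Igll1* lies at chr16:16862273-16862332, and a second probe, described as Ig lambda-5 but named by a transcript identifier, lies 1109 bases away at chr16:16861104-16861163. Both list the same cDNA in the annotation. The second was no member by name and was added after its values were seen. The *Vpreb1* probe lies 6226 bases beyond the *Igll1* probe, at chr16:16868559-16868618. The lambda-5 probe is given whole, and the first 30 bases of the other probes are given.

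Igll1 A_52_P273394: gatcaaggaatgagatttttcaggccatag

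Ig lambda-5 A_52_P493519: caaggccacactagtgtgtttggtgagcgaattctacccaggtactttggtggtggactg

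Vpreb1 A_51_P400217: aggggtagaacgtgaggttttgcagagcct

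The *Cd72* probes, on the minus strand at chr4:43463042-43465186 and chr4:43463070-43465214, are shown because they share 32 bases, written in capitals, and therefore do not count as separate measurements.

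Cd72 A_51_P292736: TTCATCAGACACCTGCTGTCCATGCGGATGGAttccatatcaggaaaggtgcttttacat

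Cd72 A_52_P14600: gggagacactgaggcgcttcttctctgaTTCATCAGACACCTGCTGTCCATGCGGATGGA

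No member probe met the criteria for a changed probe, an unadjusted p under 0.01 with more than 2-fold change in limma (0 of 7 tested, and 0 of 7 with the slide as a block). Among all 22007 tested probes, 132 (0.6%) met them as lower in Meis1-KO LSK cells and 30 (0.136%) as higher, and with the slide as a block 307 (1.4%) were lower and 130 (0.591%) higher. These counts were unstable: with 1 array left out they ran from 57 to 1705 lower and from 34 to 510 higher, the most without the first knockout array, and with normexp they were 47 and 2. 1 of the 7, *Vpreb3* probe A_51_P375789, passed the filter only through the control arrays, so a lower value in the knockout was set by the way it was chosen. It was also the 1 member probe with an unadjusted p under 0.05, and nothing is read from that p. Of the 6 probes well above background on all 4 arrays, 4 were lower in Meis1-KO cells and 2 were higher, both of *Cd72*. The median difference of these 6 was -0.18 on the log2 scale, against 0.08 over all tested probes, of which 43.7% were lower. Both knockout arrays lay below both control arrays for 2 of the 7, the pair of *Vpreb3* probes with the dim probe among them, and for none in the other direction, while 10.9% of all tested probes were separated in this way as lower and 16% as higher. The smallest adjusted p among the 7 was 0.983 in limma with Benjamini-Hochberg adjustment over all tested probes. With 2 arrays a group, an exact two-sided permutation test of a single probe cannot give a p below 0.333.

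The targeted gene read lower on both knockout arrays than on both control arrays at each of its probes, without meeting the criteria in limma (adjusted p = 0.983 at both). *Meis1* probe A_52_P670612 read 0.25 and 0.22 on the knockout arrays against 1.02 and 1.45 on those of the control, a difference of -0.77 on slide 1 and -1.23 on slide 2. A dimmer probe, A_52_P26195, read -2.46 and -3.54 against -1.55 and -1.06, and was not well above background on the second knockout array. With the slide as a block, the dimmer probe met the criteria (limma adjusted p = 0.498). It entered the test through the control arrays, which favors a lower value. The position of these probes relative to the deleted exon was not analysed here. The arrays themselves differed in brightness, with a 75th percentile of 90.3 intensity units on the second knockout array and 147 to 154 on the others, and 49.2% of its spots well above background against 54.7% to 57.4%. The arrays numbered 1 shared a slide, as did those numbered 2, and the knockout and control arrays of slide 1 correlated at 0.968 across tested probes and those of slide 2 at 0.916. The knockout arrays correlated at 0.902 with each other and the control arrays at 0.960, and across slides the values were 0.956 and 0.891.

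**Figure D1:**
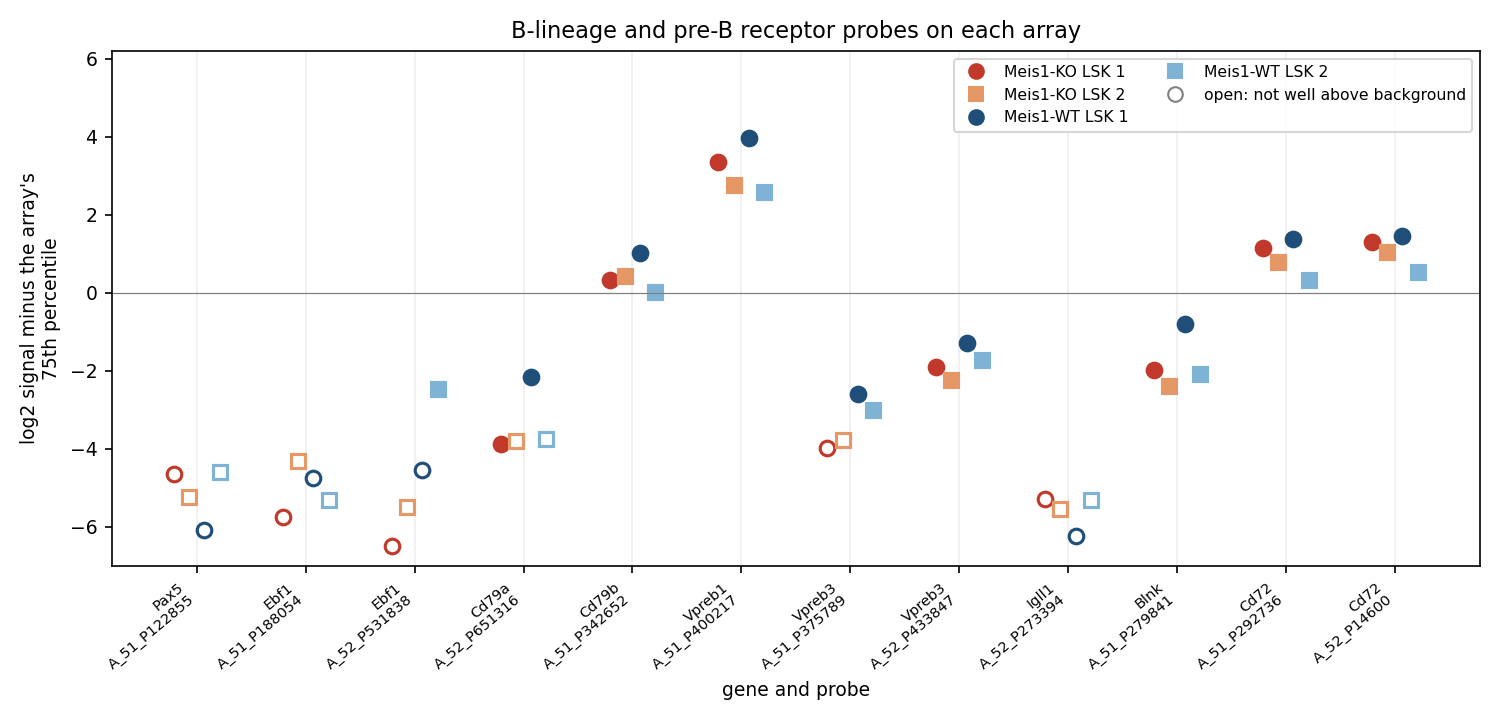
The vertical axis gives the log2 signal minus the 75th percentile of the array, for each of the 12 member probes on the 4 arrays; filled points are well above background and open points are not. The probes of *Pax5* and *Igll1* and 1 probe of *Ebf1* are open on all 4 arrays, and Meis1-WT LSK 1 is the highest point for all 7 tested probes.

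The transcription factors at the head of the program were not detected at the probes of their messenger RNAs. The *Pax5* probe, on the minus strand of chromosome 4 with ends 32555 bases apart (chr4:44550354-44582908), was not well above background on any array. It read -4.64 and -5.24 on the knockout arrays and -6.08 and -4.61 on the control arrays, values at which no order can be read. Its sequence is given because no other probe carried the name *Pax5*.

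Pax5 A_51_P122855: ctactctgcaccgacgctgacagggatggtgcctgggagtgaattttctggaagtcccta

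The probe of the *Ebf1* messenger RNA (chr11:44818365-44818424, plus strand) was likewise dim on all 4 arrays, at -5.76 and -4.33 in the knockout and -4.74 and -5.31 in the control. A further probe named *Ebf1*, A_52_P531838, stands for a cDNA described as unclassifiable, at chr11:44462618-44462677. It was well above background on the second control array only, at -2.47, against -4.56 on the first control array and -6.49 and -5.50 on the knockout arrays. This probe did not enter the test, and its signal rested on a single array. A dim probe gives no more than a bound on the level, and transcripts in a small fraction of LSK cells could lie below it.

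Of the surrogate light chain genes, *Vpreb1* gave a strong signal on every array, while *Vpreb3* was near the detection limit in the knockout at 1 of its probes. *Vpreb1* read 3.35 and 2.75 in the knockout and 3.97 and 2.57 in the control, or 1511, 607, 2294 and 916 intensity units before scaling. After scaling, the highest and the lowest of the 4 were both control arrays, with the knockout arrays between them, while before it the second knockout array was the lowest. The difference was -0.22 (SE 0.60, 95% interval -1.68 to 1.24, limma adjusted p = 0.985), so neither a fall nor a rise of 2-fold was outside the interval.

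*Vpreb3*, whose product resembles VpreB and associates with the heavy chain early in assembly, was read by a pair of probes. Probe A_51_P375789 read -3.99 and -3.78 in the knockout, not well above background on either array, and -2.59 and -3.01 in the control, well above background on both. For a bound, the second knockout array was set to its background limit. The first knockout array kept its own value, which lay above the limit of that array. On these terms the processed signal in the knockout was at least 1.77-fold lower. The bound moved between 1.37 and 2.28 when single arrays were left out. This describes a probe that was kept for its control values, and no change is read from it. The limma adjusted p was 0.983. With normexp background correction in place of the processed signal the fitted difference was 0.11, against -1.09 on the processed signal, so the direction turned.

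The other *Vpreb3* probe was well above background on all 4 arrays. It read -1.90 and -2.25 in the knockout and -1.30 and -1.72 in the control, a difference of -0.56 (SE 0.45, 95% interval -1.65 to 0.52, limma adjusted p = 0.983). The groups did not overlap at this probe, but the gap between the highest knockout and the lowest control array was smaller than the gap within either genotype.

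The probe named *Igll1* was dim on all 4 arrays, at -5.30 and -5.54 in the knockout and -6.24 and -5.31 in the control. The Ig lambda-5 probe of the same cDNA was well above background on all of them, at -1.35 and -1.65 in the knockout and -0.30 and -1.38 in the control. Signal described as lambda-5 was thus measured in both genotypes, by a probe that does not carry the gene name. The difference at the lambda-5 probe was -0.66 (SE 0.53, 95% interval -1.94 to 0.62, limma adjusted p = 0.983), with the second control array inside the range of the knockout arrays. *Vpreb2*, a close relative of *Vpreb1* that was not a member, read -3.63, -3.84, -3.84 and -3.83 in the order of the knockout and then the control arrays, near the background throughout.

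*Cd79a* and *Cd79b*, which encode the paired signal chains of the receptor, differed in whether they could be measured. The *Cd79a* probe (chr7:25684353-25684610, plus strand) read -3.88 and -3.80 in the knockout and -2.18 and -3.74 in the control. It was well above background on the arrays of slide 1 only, 1 of each genotype, and was not tested. Although the knockout values were the lower pair, the second control array lay 0.06 above them.

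Cd79a A_52_P651316: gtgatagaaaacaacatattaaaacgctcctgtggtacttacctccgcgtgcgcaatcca

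*Cd79b* (chr11:106172780-106172839, minus strand) was well above background on all 4 arrays, at 0.31 and 0.43 in the knockout and 1.01 and 0.01 in the control. The 2 knockout arrays lay inside the range of the control arrays, and the difference was -0.14 (SE 0.51, 95% interval -1.37 to 1.09, limma adjusted p = 0.988).

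The adaptor *Blnk* (chr19:41003428-41003487, minus strand) read -1.99 and -2.39 in the knockout and -0.82 and -2.10 in the control. The first control array stood apart from the other 3, which lay within 0.40 of each other, and the difference was -0.73 (SE 0.57, 95% interval -2.10 to 0.64, limma adjusted p = 0.983). The co-receptor *Cd72* read 1.14 and 0.78 in the knockout and 1.38 and 0.33 in the control at 1 probe, and 1.30 and 1.04 against 1.44 and 0.52 at the other. At both probes the knockout arrays lay between the control arrays. The differences were 0.10 (SE 0.52, 95% interval -1.17 to 1.37) and 0.19 (SE 0.50, 95% interval -1.02 to 1.40), with limma adjusted p of 0.991 and 0.984. In RNA of sorted pools, fewer cells of a type and less RNA per cell cannot be told apart.

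For 5 of the 7 tested member probes, those of *Cd79b*, *Vpreb1*, *Blnk* and *Cd72*, the control arrays lay further apart than the genotype means did. Meis1-WT LSK 1 was the highest of the 4 arrays for 7 of 7 tested member probes. Of all tested probes, 17.7% were highest on it and 45.0% were highest on the second knockout array. Among the 7, *Vpreb3* probe A_51_P375789 entered through the control arrays, which favors a control array as the highest. The other 6, well above background on all 4 arrays, include the *Cd72* probes, which do not count as separate measurements. Between the control arrays, *Vpreb1* differed by 1.40, *Blnk* by 1.28 and *Cd79b* by 1.00. The same first-minus-second difference in the knockout was 0.60 for *Vpreb1*, 0.40 for *Blnk* and -0.11 for *Cd79b*. What set the first control pool apart was not tested.

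Slide by slide, the direction depended on the pair of arrays and on how they were scaled. On slide 1 all 7 tested member probes were lower in the knockout, with a median difference of -0.62, where 46.7% of all tested probes were lower and their median was 0.03. On slide 2 the count was 3 of 7 and the median 0.18, where 44.0% of all tested probes were lower and their median was 0.13. Without the *Vpreb3* probe that was dim in the knockout, 6 of 6 were lower on slide 1 and 2 of 6 on slide 2. Of these 6, the probes that were lower on both slides were *Vpreb3* probe A_52_P433847 (-0.60 and -0.53) and *Blnk* (-1.17 and -0.29). Without scaling between arrays, an alternative added after the data had been seen, all 7 were lower on both slides, but so were 78.4% of all tested probes on slide 2, with a median of -0.64. On slide 1 the share of all tested probes was 44.6%, with a median of 0.04. The second knockout array was the dimmest, so subtracting its 75th percentile raised its values relative to the other arrays.

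**Figure D2:**
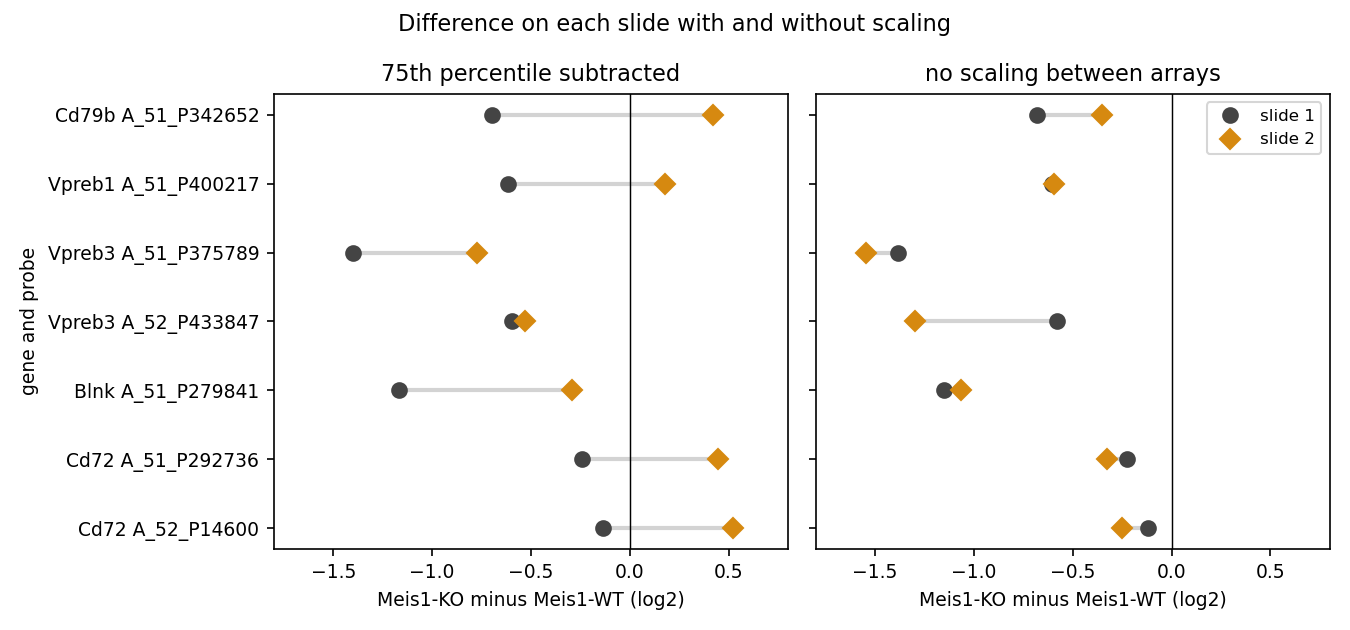
The horizontal axis gives the log2 difference between the Meis1-KO and Meis1-WT array of slide 1 (circles) and slide 2 (diamonds) for the 7 tested member probes, with the 75th percentile of each array subtracted (left) and without scaling (right). With scaling, 3 probes are left of 0 on slide 2; without it all 7 are left of 0 on both slides, as are 78.4% of all tested probes on slide 2.

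The promoters of *Igll1* and *Vpreb1* (250 bases before the start of the gene, RefSeq sequence on GRCm38.p6, minus strand) are shown because these neighbours belong to 1 receptor and because both hold the letters CAGGTG on 1 of the strands, the E-box that E2A binds, here in capitals. Such a match was found in 4 of 9 promoters of 8 member genes (*Cd79a*, *Igll1*, *Vpreb1* and *Blnk*) and in 17.2% of 32851 promoters of the same length. The letters CCCNNGGG, the core bound by EBF1, were found in 1 of 9 (*Igll1*) against 11.8%, and TGGGAA, an Ikaros core, in 1 of 9 (*Ebf1*) against 21.6%. These motifs were searched on both strands, and a match describes letters in the window only. *Cd79b* had no entry.

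Igll1 chr16:16863986-16864235: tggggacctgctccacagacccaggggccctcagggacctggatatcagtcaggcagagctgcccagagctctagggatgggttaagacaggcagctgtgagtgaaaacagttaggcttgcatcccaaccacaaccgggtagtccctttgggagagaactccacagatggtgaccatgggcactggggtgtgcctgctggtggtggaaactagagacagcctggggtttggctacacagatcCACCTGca

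Vpreb1 chr16:16869256-16869505: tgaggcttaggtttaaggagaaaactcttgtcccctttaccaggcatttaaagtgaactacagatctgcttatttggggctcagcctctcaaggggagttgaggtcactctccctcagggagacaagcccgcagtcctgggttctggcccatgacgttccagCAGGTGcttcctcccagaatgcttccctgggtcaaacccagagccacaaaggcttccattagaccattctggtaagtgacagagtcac

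Other genes of the B-cell program were measured beside the members, and here too no difference met the criteria. In 4 lists, B-lineage transcription factors, V(D)J recombination, signaling below the receptor, and B-cell surface markers, 0 of 56 tested probes met the criteria in limma or in the methods' t-test, 5 had an unadjusted limma p under 0.05 where 618 of all 22007 did, and with the slide as a block 2 met the criteria, of *Cd74* (adjusted p = 0.35) and *Irf4* (adjusted p = 0.309). *Irf4* and *Il7r*, which are among the 5, were dim on the second knockout array and entered the test through the control arrays, which favors a lower value. Of the 47 probes well above background on all 4 arrays, 3 had an unadjusted p under 0.05. Lists are described by the brightest probe of each gene. Of 11 tested transcription factor genes 7 were lower and 4 higher, with a median of -0.23. Of 9 tested signaling genes 7 were lower (median -0.28), and of 7 tested surface genes 4 were lower (median -0.22). Over all tested probes 43.7% were lower, with a median of 0.08. Well above background on all 4 arrays were 9 of the 11 transcription factor genes, 8 of the 9 signaling genes and 6 of the 7 surface genes. The others entered through the arrays of 1 genotype, which favors a higher value there.

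The V(D)J list, which holds genes that assemble the antigen receptor genes and the cytokine receptor gene *Il7r*, had no probe that met the criteria. Of its 12 tested probes, 3 entered through the control arrays alone, 1 of *Il7r* and a pair of *Dclre1c*. Of the 9 probes well above background on all 4 arrays, 7 were lower in the knockout by fitted difference and 2 higher, 1 each of *Xrcc4* (0.27) and *Dclre1c* (0.11). At the brightest probe of each gene, the 5 genes measured on all 4 arrays were lower, *Xrcc4* by the least (-0.04), with a median of -0.79, and 4 of them on both slides. The groups did not overlap for 3 of these 5, where 10.9% of all tested probes were separated in this direction. *Dntt*, terminal transferase, which adds bases at the joints of rearranging segments, read 5.40 and 4.62 in the knockout and 6.56 and 5.82 in the control, a difference of -1.18 (SE 0.52, unadjusted p = 0.0614 in limma). *Il7r*, the interleukin 7 receptor chain of lymphoid progenitors, read -1.91 and -2.72 against -0.84 and -1.06, and was well above background on 1 of the knockout arrays. *Lig4*, a DNA ligase that seals the joints, read -2.60 and -1.70 against -1.19 and -1.27. *Rag1*, a subunit of the recombinase, read -2.49 and -2.90 against -1.29 and -2.52, while *Rag2*, its partner, was dim on all 4 arrays.

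Among the transcription factors well above background on every array, the widest differences were those of *Pou2af1*, a B-cell coactivator (-1.29, from 1.34 and 2.29 in the knockout and 4.14 and 2.07 in the control), *Irf8* (0.60) and *Id2*, an inhibitor of E proteins (-0.60). Among the signaling genes they were those of *Dapp1* (-0.62), the kinase gene *Fyn* (-0.48) and the phosphatase gene *Ptpn6* (0.46). None of these met the criteria.

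**Figure D3:**
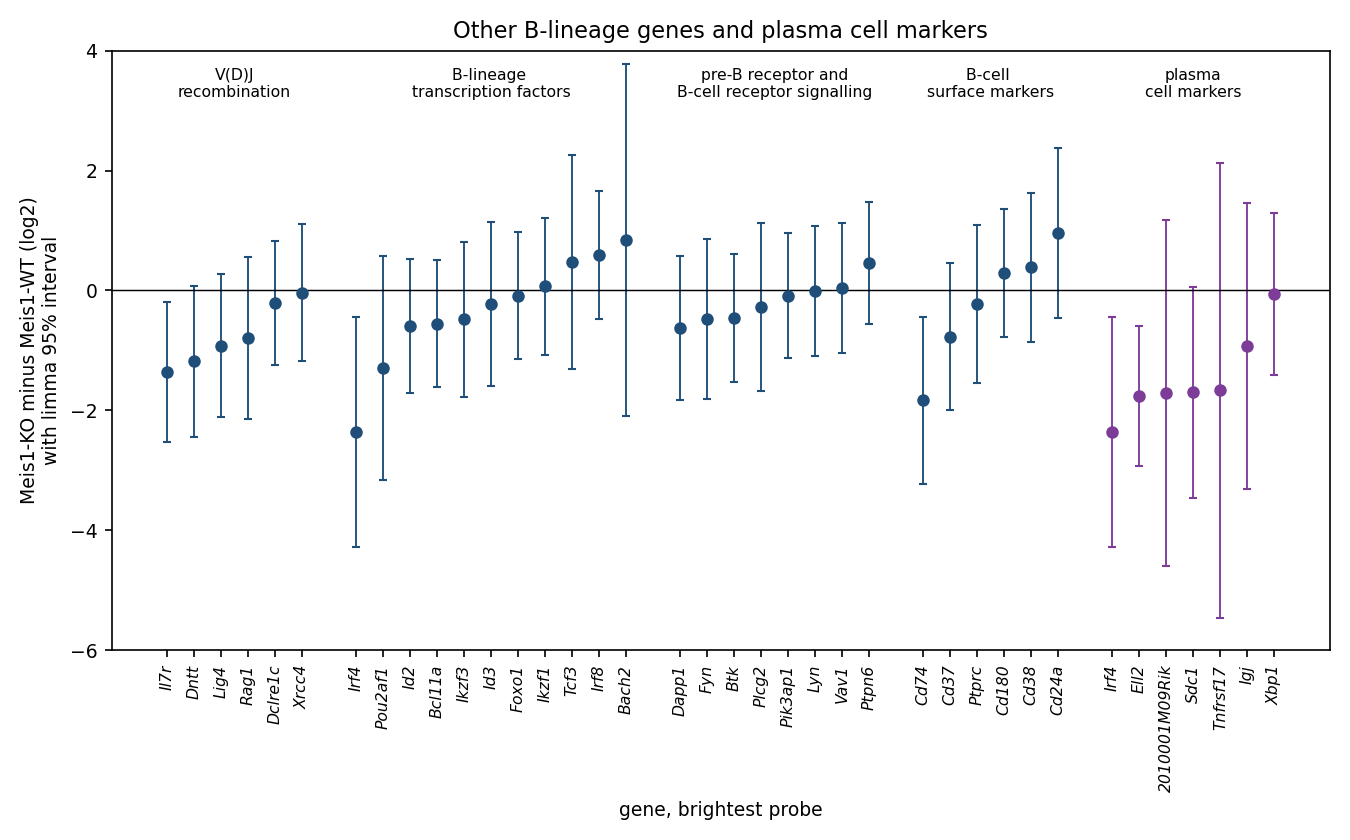
The vertical axis gives the log2 difference between Meis1-KO and Meis1-WT LSK cells with its limma 95% interval for the brightest probes of tested genes in 4 B-lineage lists (blue) and the plasma cell markers (purple). The brightest probes of all 6 V(D)J genes lie below 0, *Il7r* among them, which was dim on 1 knockout array, and *Irf4* stands in both the transcription factor and the plasma cell list.

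Of the 15 genes of the B-cell surface list, 6 were well above background on all 4 arrays at their brightest probe and 4 on none. The 6 were *Cd180*, *Cd24a*, *Cd37*, *Cd38*, *Cd74* and *Ptprc*. *Cd22*, *Cr2*, *Cxcr5* and *Fcer2a* were dim on all 4 arrays, and *Ms4a1*, which encodes CD20, was well above background on 1 array of each genotype. *Cd74*, the invariant chain, which myeloid and dendritic cells also express, read 0.53 and 1.85 in the knockout and 2.81 and 3.23 in the control, a difference of -1.83 (SE 0.58, unadjusted p = 0.0181 in limma). *Cd37* (-0.77) and *Cd24a* (0.96) had the next widest differences at the brightest probe among surface genes measured on every array.

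Markers of other cells moved between the arrays as well. The plasma cell list, with 5 of 8 genes well above background on all 4 arrays and none at background on all, summed to 5.39 and 26.9 times the 75th percentile on the knockout arrays and 29.5 and 14.7 on the control arrays. Its median difference over 7 tested genes was -3.11 on slide 1 and 0.80 on slide 2. Among them, *Irf4* and *Tnfrsf17* were each dim on 1 knockout array. Both passed the filter by their control values, which favors a lower value in the knockout. *Ell2* of this list, an elongation factor of antibody-secreting cells, met the criteria (-1.76). The first control array was highest in the plasma cell sum, as it was for the member probes, and in the V(D)J sum. The V(D)J sum was 44.6 and 26.4 in the knockout and 97.7 and 59.0 in the control. Most of it on every array was the single gene *Dntt*, and the largest part of the plasma cell sum was *Igj*. The granulocyte and monocyte list, with 7 of 10 genes well above background on all 4 arrays and *Lcn2* on none, summed to 174 and 112 in the knockout and 188 and 67.8 in the control, higher on both arrays of slide 1. The erythroid list, with 5 of 8 genes well above background on all 4 arrays, summed to 102 and 247 in the knockout and 91.2 and 26.8 in the control, higher in the knockout on both slides. Most of that sum was the beta-globin gene *Hbb-b1*, which read 6.55 and 7.93 against 6.30 and 4.46 at its brightest probe. By fitted difference, 4 of the 6 tested erythroid genes were lower in the knockout, with a median of -0.18. Of these 4, *Alas2* was dim on the second knockout array and was kept for its control values. The T-cell list had *Thy1* alone well above background on all 4 arrays, with *Cd3e* and *Cd3g* on none, and summed to 1.99 to 3.40. Of the stem and progenitor list, 8 of 9 genes were well above background on all 4 arrays. The part of these other cells in the member values was not tested.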

How the data were processed

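RNA of LSK cells from 2 pools per genotype was hybridized to 4 Agilent arrays of 1 color. Genotype and replicate come from the sample labels, and the pooling from the methods. For each array the authors deposited spot intensities from the scanner software Feature Extraction (9.5.3.1 per the file headers, 9.1 in the submitters' processing notes), in which the processed signal is background-subtracted. The authors' table of the series holds the same intensities rounded, without scaling between arrays.

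From the deposited intensities, log2 processed signals were computed, control spots and spots marked as outliers were dropped, repeated spots of a probe were averaged, and the 75th percentile of each array over its spots was subtracted. The genotype effect was fitted by limma 3.58.1 (lmFit, then eBayes; R 4.3.3) without further terms. It covered the 22007 probes with a value on all 4 arrays that had neither array below the limit for well above background in 1 genotype or both. The criteria, p under 0.01 and more than 2-fold, follow the methods, and p-values were adjusted by Benjamini-Hochberg over all tested probes. The p-values measure the spread between pools. The limma step was tested on simulated data.

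Replicate numbers mark slides, per the file headers (1 slide for both arrays of a number), and the residuals of arrays that share a number had a correlation of 0.266 over probes, so a fit with the slide as a block is given where it moved a count. For a probe dim on both arrays of a genotype, the fold is a bound: the mean of the bright genotype against the higher, per array, of the dim probe's value and the lowest signal well above background. Precision is limited by the number of arrays and by how far signals stand above background.

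The members and lists were chosen with earlier results of these data known. Named genes were all members, *Meis1*, in each other B-lineage list the 3 genes with the widest difference at the brightest probe among those well above background on all 4 arrays, genes past the criteria, and genes that define a marker list. *Elane* and *Flt3* met the criteria as well. *Elane* was at -1.58, and *Flt3*, dim on the second knockout array, entered through the control arrays, so no size is given. *Spi1*, *Syk*, *Mzb1*, *Ela2*, *Ly6g* and *Lyz* matched no probe name. Of the B-lineage lists, 1 gene is counted but neither named nor plotted, since it is not reported here. The dendritic cell and natural killer list had 4 of 7 genes well above background on all 4 arrays, and summed to 5.29 and 11.3 in the knockout and 6.15 and 6.07 in the control. The alternatives were median, quantile and no scaling, normexp with an offset of 50, the authors' table, no filter on dim probes or a filter that asks for all 4 arrays, retention of outlier spots, a slide block, an intensity trend, the t-test of the methods, and omission of each array. Promoter and motif sequences come from RefSeq, on GRCm38.p6, and probe positions are on mm9.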

Additional observations from a re-analysis of the deposited data

How the results depend on the processing

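No member probe met the criteria under any alternative except without a filter on dim probes, where 1 did: the *Ebf1* cDNA probe that was well above background on 1 array (difference -2.48, with a limma adjusted p = 0.977). Directions of single members turned in places. The dimmer *Vpreb3* probe was at 0.11 with normexp. *Cd72* probe A_51_P292736 was at -0.018 with normexp and -0.28 without scaling, and A_52_P14600 at -0.18 without scaling. With 1 array left out, differences ran from -0.64 to 0.36 for *Cd79b*, from -0.92 to 0.48 for *Vpreb1*, from -0.42 to 0.62 and from -0.27 to 0.65 for the *Cd72* probes, from -1.37 to -0.09 for *Blnk*, and from -1.30 to -0.88 and from -0.77 to -0.35 for the *Vpreb3* probes. *Cd79b* was at 0.36 and *Vpreb1* at 0.48 without the first control array. *Vpreb1* was at 0.08 without the second knockout array, and *Cd72* probe A_51_P292736 at -0.08 without the first. The cause was not tested.

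Among the other B-lineage probes, 0 met the criteria, and 2 did with normexp (*Cd74*, *Dntt*), 1 without a filter (*Irf4*), 2 with the replicate block (*Cd74*, *Irf4*), 1 with an intensity trend and 1 without scaling (both *Cd74*), and 1 to 5 with an array left out. The 5 came without the first knockout array (*Il7r*, *Ptprc*, *Cd24a*, *Dapp1*, *Dclre1c*), at adjusted p of 0.0624 to 0.0872. Over all tested probes, 132 were lower and 30 higher. The counts were 47 and 2 with normexp, 43 and 10 with a filter on all 4 arrays, 307 and 130 with the replicate block, 23 and 7 with the methods' t-test, and 85 and 16 with an intensity trend. Higher probes numbered 100 without a filter and 14 without scaling. With an array left out, lower probes numbered 57 to 1705 and higher probes 34 to 510, the most without the first knockout array. With the block, 50 probes had an adjusted p under 0.05, and without it none did. The block changed no member's call.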
